A study of Homo sapiens with 6 samples.

Results

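The initiation and control of coagulation and fibrinolysis were examined through 10 genes: F3, TFPI, TFPI2, THBD, PROCR, F2R, F2RL1, PLAU, PLAUR and PLAT. The genes were selected by symbol from the 40173 genes of the deposited table, and all 10 were found in it and were among the 15250 genes that passed the filter on low counts. The list was drawn up with the fold changes of these same libraries known, in particular that of F3, so that the values below describe the genes and are no independent support for a change of the group. A549, a human lung adenocarcinoma cell line, had been transfected with an siRNA against the long noncoding RNA FAM83H-AS1 (silenced) or with a negative control (control) and was harvested a day later, with 3 libraries per group. Which FAM83H-AS1 siRNA was used is not given in the sources used here, nor whether the libraries of a group came from separate cultures, so that p-values measure the spread between these libraries, which may be technical.

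Tissue factor, encoded by F3, is a membrane protein that binds coagulation factor VII and starts the clotting cascade. TFPI and TFPI2 encode Kunitz-type inhibitors of serine proteases, and TFPI acts on the tissue factor and factor VII complex. Thrombomodulin (THBD) and the endothelial protein C receptor (PROCR) turn thrombin toward the activation of the anticoagulant protein C, while the protease-activated receptors PAR1 (F2R) and PAR2 (F2RL1) pass the presence of thrombin, of trypsin-like proteases and of the tissue factor complex on to the cell. On the fibrinolytic side, urokinase (PLAU) and tissue-type plasminogen activator (PLAT) convert plasminogen into plasmin, and urokinase acts at its receptor PLAUR. Carcinoma cells, including those of the lung, are known to carry tissue factor and the urokinase receptor on their surface.

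The library totals lay between 9738291 and 17742643 counts. FAM83H-AS1, the targeted gene, had 141, 185 and 292 counts in control replicates 1, 2 and 3, compared with 47, 48 and 75 in silenced replicates 1, 2 and 3. On the log2 scale it fell by 1.70 with an SE (standard error) of 0.148 and an adjusted p of 7.99e-05 in edgeR. Among the epithelial markers, KRT8 and KRT18 had 9738 to 28628 counts per library and EPCAM and CDH1 had 8 to 59. CDKN2A and CDKN2B, both known to be deleted in A549 cells, had 521 to 955 and 131 to 213 counts per library. ALDH1A1, known to be abundant in A549 cells, had 0 to 2 counts, and AKR1B10, likewise known to be abundant, had 9 to 28; these last genes were looked up after the table had been opened. These markers go against the label, so that A549 stands here for the cells as labelled. Of the markers of other cell types, PTPRC, CD3E, PECAM1 and KDR had at most 2 counts in any library, whereas CD68 had 1196 to 3409, ESAM 363 to 630, COL1A1 250 to 502, PDGFRB 36 to 91, ITGA2B 29 to 83 and CDH5 20 to 75.

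F3 was the gene of the group that rose most after silencing, by a factor of 2.10, whereas TFPI, TFPI2 and the plasminogen activators did not pass the test. Of the 10 genes, 3 had a higher level in the silenced cells with an adjusted p under 0.05 (F3, F2RL1 and PROCR), compared with 8.75% of all 15250 tested genes, and 0 had a lower level, compared with 8.27%. F3 alone also exceeded a fold change of 2, the threshold of the study's methods for calling a gene, which 1.14% of the tested genes did in the upward direction. The median log2 fold change of the 10 genes was 0.13 and that of all tested genes -0.00. In 4 of the 10 (F3, TFPI, F2RL1 and PROCR) the values of the groups did not overlap, as was the case in 36.6% of the tested genes. Nothing about the group can be read from these shares, since the same contrast was known when its members were chosen.

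**Figure D1:**
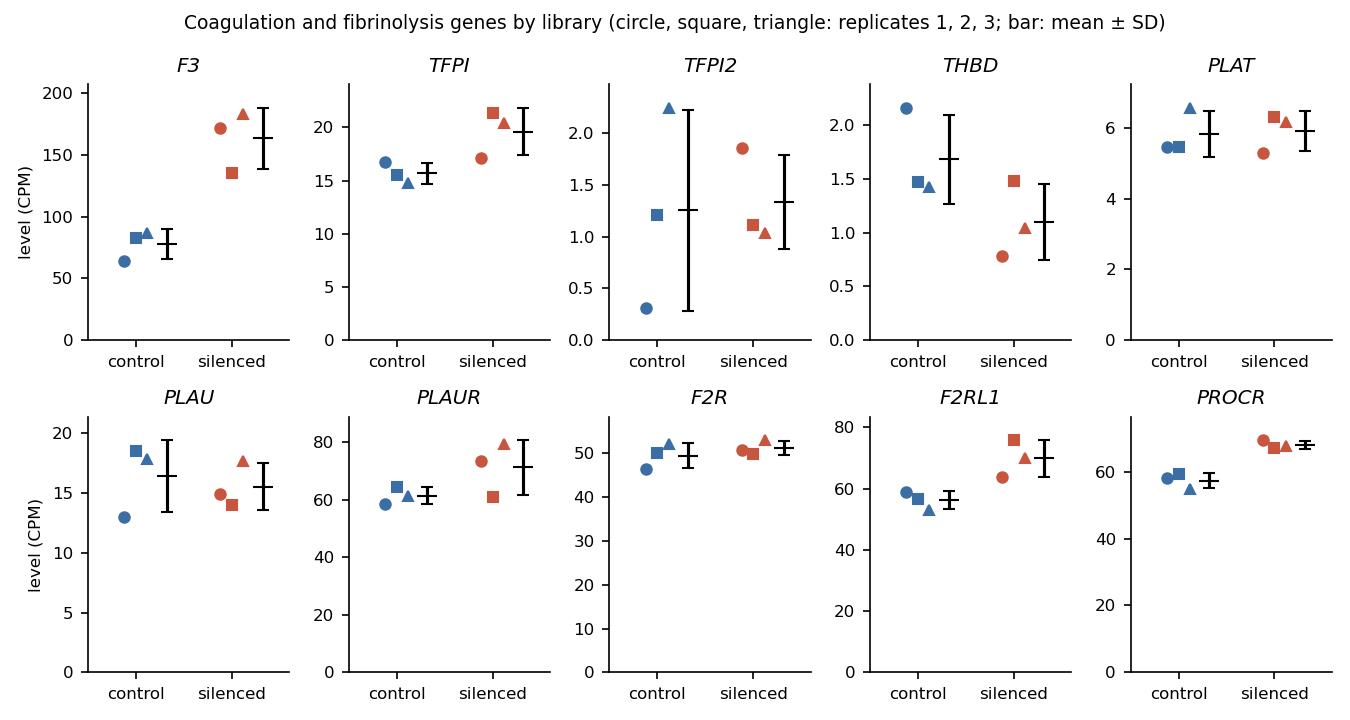
Level of each of the 10 genes in CPM (counts per 1000000 counts of the normalized library, vertical axes from 0) in the 3 control libraries (blue) and the 3 silenced libraries (red), with replicates 1, 2 and 3 as circle, square and triangle, and the mean ± SD as black bars. The groups are separate in F3, TFPI, F2RL1 and PROCR and overlap in the other 6 genes, and F3 had the widest gap, from 86.9 in the highest control to 136 in the lowest silenced library.

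Because the largest change was at F3, the sequence before its start of transcription is shown. Those of PLAUR and TFPI2 are shown as well, the only others of the 7 genes examined whose promoter window held the AP-1 motif. RefSeq promoter windows on GRCh38.p14, from 250 bases before to 50 bases after the annotated start, were matched by symbol for F3, TFPI, TFPI2, PLAU (2 windows), PLAUR, F2RL1 and PROCR. The windows lie at chr1:94541710-94542009 (minus strand) for F3, chr19:43670120-43670419 (minus strand) for PLAUR and chr7:93890704-93891003 (minus strand) for TFPI2, and are printed in the direction of transcription. Capitals mark the matches to AP-1 (TGANTCA) and to a form of the NF-kappaB motif (GGNNTTTCC) on either strand.
F3: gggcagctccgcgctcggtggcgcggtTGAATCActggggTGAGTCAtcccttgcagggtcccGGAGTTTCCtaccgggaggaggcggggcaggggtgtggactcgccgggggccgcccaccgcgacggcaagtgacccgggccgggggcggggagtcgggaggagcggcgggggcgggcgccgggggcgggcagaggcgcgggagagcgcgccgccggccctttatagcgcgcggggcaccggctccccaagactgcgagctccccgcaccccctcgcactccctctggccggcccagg
PLAUR: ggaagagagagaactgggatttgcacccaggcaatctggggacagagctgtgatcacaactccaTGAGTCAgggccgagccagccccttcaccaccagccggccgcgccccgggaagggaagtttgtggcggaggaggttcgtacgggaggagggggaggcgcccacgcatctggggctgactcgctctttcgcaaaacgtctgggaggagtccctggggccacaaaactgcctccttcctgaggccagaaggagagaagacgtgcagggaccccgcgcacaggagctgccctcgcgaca
TFPI2: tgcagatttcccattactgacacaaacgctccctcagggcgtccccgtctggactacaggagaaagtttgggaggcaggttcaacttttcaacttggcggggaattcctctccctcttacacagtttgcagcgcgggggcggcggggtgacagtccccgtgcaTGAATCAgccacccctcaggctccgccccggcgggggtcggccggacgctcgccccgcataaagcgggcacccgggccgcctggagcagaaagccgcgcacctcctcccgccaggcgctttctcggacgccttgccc

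Both AP-1 matches of F3 lie next to each other, from base -223 to -217 and from -210 to -204 relative to the start site at 0, and the NF-kappaB match follows from -187 to -179. AP-1 is the dimer of FOS and JUN family proteins, and both kinds of site are known from the F3 promoter. The single AP-1 matches of PLAUR (-186 to -180) and TFPI2 (-87 to -81) have the letters TGAGTCA and TGAATCA, the forms that F3 has in 1 copy each. TGANTCA occurred in 7.71% of all 35116 promoter windows of the table, and in 446 of 9513 windows of tested genes (4.69%), with 1 window taken per gene. GGNNTTTCC occurred in 6.26% of all windows and 6.53% of those of tested genes, and F3 was the only 1 of the 7 genes examined with a match. The SP1 motif GGGCGG was found in F3 (4 matches), PLAU, TFPI2, F2RL1 and PROCR, in 45.0% of all windows and in 70.7% of those of tested genes. GCGNGGGCG, a form of the EGR1 motif, was found in F3, where it overlaps an SP1 match, in TFPI2, where it does the same, and in PLAUR, in 9.43% of all windows and in 15.9% of those of tested genes. CCGGAAG, a form of the ETS motif, occurred in 10.3% of all windows and 19.2% of those of tested genes. It was found in none of the 8 windows of these genes, and TFPI held none of the 5 motifs in the forms searched. Other forms of the ETS motif were not searched for. A match says only that these letters lie in the window, and the windows of THBD, F2R and PLAT were not analysed here.

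**Figure D2:**
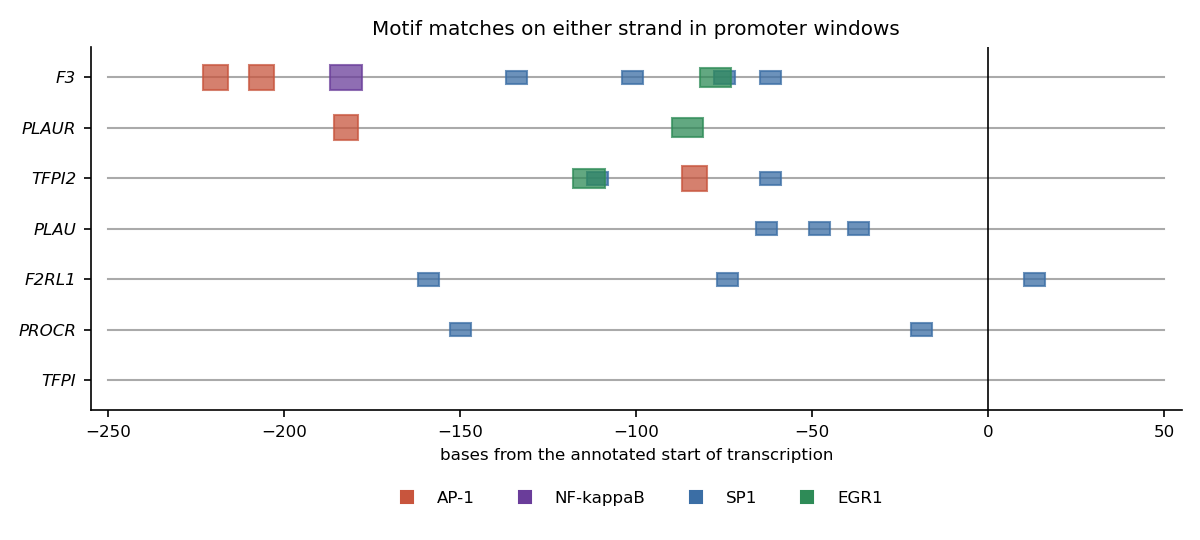
Matches to 4 motifs on either strand (AP-1 red, NF-kappaB violet, SP1 blue, EGR1 green) in the promoter windows of 7 genes, drawn to scale by distance in bases from the annotated start of transcription at 0. For PLAU, the downstream of its 2 windows is drawn, since the other held no match. F3 carries both AP-1 matches and the NF-kappaB match upstream of its SP1 and EGR1 matches, and the line of TFPI is empty.

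F3 counts were 621, 952 and 1470 in control replicates 1, 2 and 3, and 1758, 1466 and 2458 in silenced replicates 1, 2 and 3. Scaled to the TMM-normalized library size, the levels in CPM were 63.8, 82.2 and 86.9 in the control and 172, 136 and 183 in the silenced cells. Every silenced library lay above every control library, and the lowest silenced library, replicate 2, was nearer to the control cells than the others. The mean was 77.7 ± 12.2 CPM in control and 163 ± 24.7 CPM in silenced cells (SD, n = 3 each), so that F3 rose 2.10-fold, which was 1.07 on the log2 scale (SE 0.130), and the adjusted p in edgeR was 5.95e-04. Of the 15250 tested genes, 177 had a higher log2 fold change. The adjusted p was under 0.05 in all 12 other fits, while the fold change fell below 2 without control replicate 1 (log2 0.95) or without silenced replicate 3 (log2 0.98). Counts per gene do not separate full-length F3 mRNA from the alternatively spliced form that encodes a soluble tissue factor.

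TFPI, the main inhibitor of the tissue factor and factor VII complex, had 16.8, 15.5 and 14.8 CPM in the control libraries and 17.1, 21.4 and 20.4 CPM in the silenced libraries. The groups did not overlap, but silenced replicate 1 lay only just above control replicate 1. Its log2 fold change was 0.33 (95% interval 0.07 to 0.58, adjusted p = 0.0774), which did not pass the test here or in any of the 12 other fits. TFPI2 had 3, 14 and 38 counts in the control and 19, 12 and 14 in the silenced libraries. TFPI2 shares 44 exonic bases with GNGT1 on the opposite strand, which had 1 to 4 counts. The groups overlapped widely, and control replicates 1 and 3 were at the extremes with 0.308 and 2.25 CPM. With a log2 fold change of -0.04 and a 95% interval from -1.14 to 1.06, the direction of TFPI2 was not detectable in these libraries.

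Within a library, the ratio of F3 to TFPI counts does not depend on the scaling between libraries. It was 3.81, 5.29 and 5.88 in the control and 10.05, 6.35 and 8.97 in the silenced libraries. All silenced ratios were above all control ratios, with geometric means of 4.91 in the control and 8.30 in the silenced libraries (p = 0.1 by a two-sided exact permutation test, which cannot go lower with 3 per group). The rise of F3 was known when the genes were listed, so that this separation is no independent support. The F3 to TFPI2 ratio ranged from 38.7 to 207 in the control libraries alone and overlapped between the groups (exact permutation test, p = 0.5). With Benjamini-Hochberg adjustment over the 5 ratios computed, of which 3 are given, the exact permutation p-values of these ratios were 0.167 and 0.5.

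THBD was among the lowest of the genes, with 21, 17 and 24 counts in the control and 8, 16 and 14 in the silenced libraries. In CPM, control replicate 1 was highest (2.16) and silenced replicate 1 lowest (0.781), and the groups overlapped by silenced replicate 2 (1.48), which exceeded control replicates 2 and 3 (1.47 and 1.42). The log2 fold change of -0.58 had the lowest value of the group and a 95% interval from -1.32 to 0.16 (adjusted p = 0.265). PROCR, its partner in the activation of protein C, had 58.0, 59.2 and 54.8 CPM in the control and 69.4, 67.0 and 67.5 CPM in the silenced libraries. The silenced libraries were all above the control libraries and close to each other. Exons of PROCR share 218 bases with AL356652.1 on the opposite strand, an antisense gene that the deposited table does not hold. Antisense genes that it does not hold also overlap exons of TFPI (118 bases), TFPI2 (79) and F2R (39). PROCR rose by 0.25 on the log2 scale (SE 0.0722, adjusted p = 0.0382). The adjusted p is near the threshold of 0.05: it was 0.0765 with DESeq2 and 0.0741 without the filter on low counts, and between 0.0610 and 0.131 with any 1 library left out.

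Of the protease-activated receptors, F2RL1 was higher in the silenced cells, and the values of F2R lay close together. F2RL1, encoding PAR2, had 58.9, 56.7 and 53.0 CPM in the control and 63.7, 75.7 and 70.1 CPM in the silenced libraries. The groups did not overlap, and silenced replicate 1 was nearest to the control libraries. F2RL1 rose by 0.32 on the log2 scale (SE 0.0854, adjusted p = 0.0287), and its adjusted p lay between 0.0379 and 0.0912 with 1 library left out, above 0.05 without control replicate 2 or 3 or silenced replicate 2 or 3. F2R, encoding the thrombin receptor PAR1, had 46.4, 49.9 and 52.03 CPM in the control and 50.8, 49.8 and 53.0 CPM in the silenced libraries. These groups overlapped, and the log2 fold change of 0.05 (95% interval -0.12 to 0.22, adjusted p = 0.707) was the most narrowly bounded of the genes that did not pass. F2RL2, a PAR3 gene outside the 10, had 13, 22 and 38 counts in the control and 40, 40 and 41 in the silenced libraries and rose by 0.92 on the log2 scale (SE 0.262, adjusted p = 0.0354). F2RL2 was above 0.05 with DESeq2 and in 4 of the 6 fits with 1 library left out. PAR4 (F2RL3) had at most 1 count in a library.

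The plasminogen activators and the urokinase receptor were measured at different levels and none passed the test. PLAU had 12.95, 18.5 and 17.8 CPM in the control and 14.9, 14.0 and 17.7 CPM in the silenced libraries. Control replicate 1 was the lowest of all libraries and control replicate 2 the highest, so that the silenced values lay inside the control range. The log2 fold change was -0.08 (95% interval -0.41 to 0.24, adjusted p = 0.739). PLAT had 5.45, 5.44 and 6.56 CPM in the control and 5.27, 6.29 and 6.17 CPM in the silenced libraries, again with overlapping groups, and a log2 fold change of 0.02 (95% interval -0.37 to 0.40, adjusted p = 0.966). Exons of PLAU share 771 bases with C10orf55 on the opposite strand, which had 0 or 1 count per library, and how strands were counted is not stated. PLAUR had 58.4, 64.4 and 61.4 CPM in the control and 73.3, 60.8 and 79.5 CPM in the silenced libraries. Silenced replicates 1 and 3 were above all control libraries, while replicate 2 lay among them. PLAUR had a log2 fold change of 0.21 (95% interval -0.00 to 0.43, adjusted p = 0.162), and of 0.32 without silenced replicate 2 (adjusted p = 0.0341). The ratio of PLAU to PLAUR counts was 0.222 to 0.290 in the control and 0.204 to 0.229 in the silenced libraries, and these ranges overlapped (exact permutation test, p = 0.3, adjusted 0.375).

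**Figure D3:**
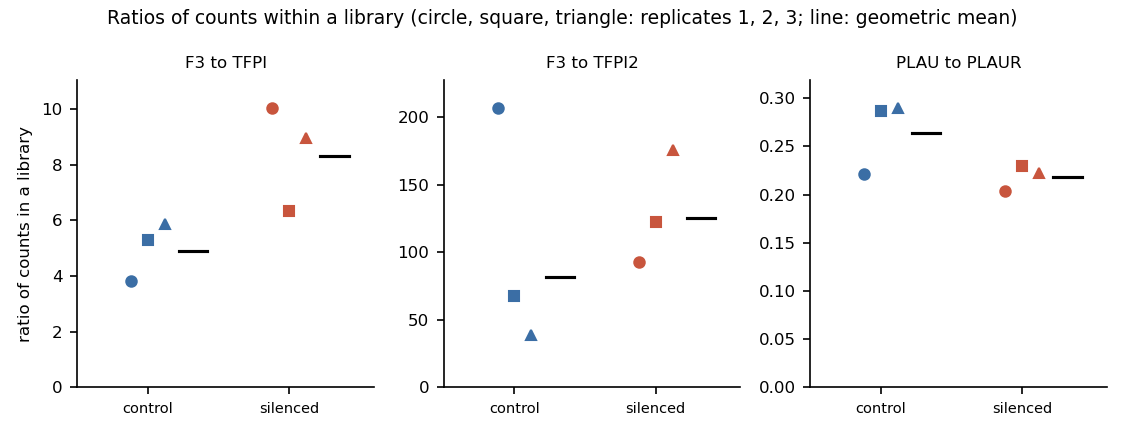
Ratio of the counts of a pair of genes within each library (vertical axes from 0) in control (blue) and silenced (red) cells, with replicates 1, 2 and 3 as circle, square and triangle, and the geometric mean of a group as a black line. The groups are separate for F3 to TFPI and overlap for F3 to TFPI2 and PLAU to PLAUR.

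To compare levels between genes, CPM were divided by the exonic length of the protein-coding transcripts in GENCODE 29. Per kilobase, PROCR was the most abundant of the 10 genes in the control cells with 42.5 ± 1.67 CPM per kilobase, followed by F3 with 34.0 ± 5.33, PLAUR with 27.9 ± 1.37, F2RL1 with 19.3 ± 1.02 and F2R with 12.2 ± 0.704 (SD, n = 3 each). PLAU (6.11 ± 1.12), TFPI (3.76 ± 0.239), PLAT (2.11 ± 0.234), TFPI2 (0.509 ± 0.394) and THBD (0.409 ± 0.101) followed on the same scale (SD, n = 3 each). Neighbours in this order did not overlap, except F3 with PLAUR and TFPI2 with THBD. In the silenced cells F3 stood first with 71.4 ± 10.8 CPM per kilobase (SD, n = 3) and PROCR next with 50.4 ± 0.940 (SD, n = 3), and the order of the other 8 genes was as in the control cells. In both groups the upper 5 places were held by genes of membrane proteins (PROCR, F3, PLAUR, F2RL1 and F2R) and the last by THBD, also a membrane protein.

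**Figure D4:**
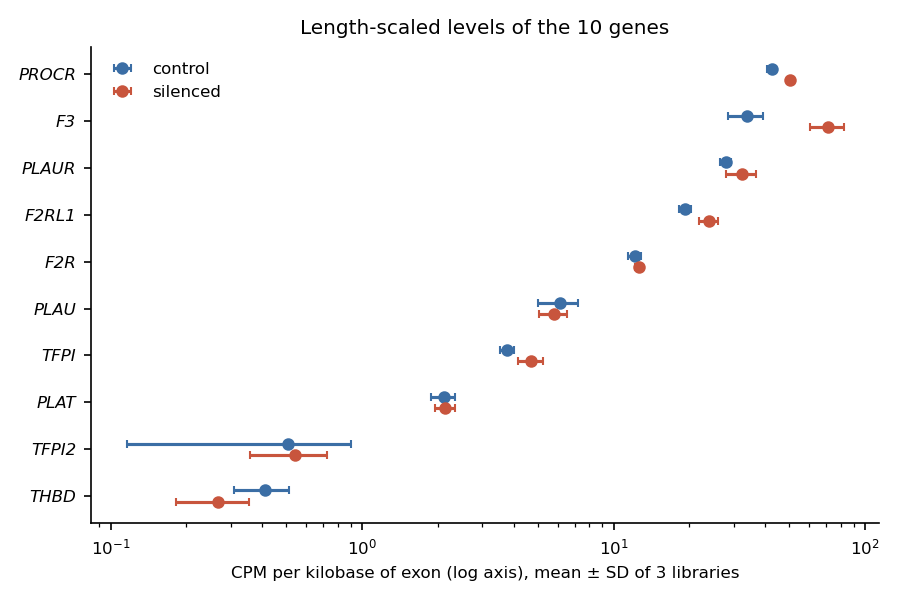
Length-scaled level of the 10 genes in CPM per kilobase of exon (horizontal log axis), as mean ± SD of 3 control (blue) and 3 silenced (red) libraries, ordered by the control level. F3 moves from 34.0 to 71.4, past PROCR (42.5 to 50.4), while TFPI2 and THBD lie below 1 in both groups.

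The rest of the pathway was described with 5 lists comprising 47 genes, which were written with earlier results of these data known. Of these, 23 were tested, 7 rose with an adjusted p under 0.05 and 0 fell, beside 8.75% higher and 8.27% lower among all tested genes. The median log2 fold change of the 23 was 0.13. Of 16 clotting factors and fibrinogen chains, only F8, F12 and VWF were tested, and none of them passed. The mRNA of factor VII (F7), the ligand of tissue factor, had 0 or 1 count per library, prothrombin (F2) had 0 to 3, and factor X (F10), the substrate of the complex, had 3 to 9. The fibrinogen chains FGA, FGB and FGG had 0 counts in all 6 libraries, and plasminogen (PLG), the substrate of PLAU and PLAT, had 0 to 2. The tested F8, F12 and VWF had 51 to 93, 54 to 82 and 8 to 32 counts per library.

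Among 11 inhibitors and genes of the protein C pathway, 4 were tested. PROS1, encoding the protein C cofactor protein S, rose by 0.43 on the log2 scale (SE 0.126, adjusted p = 0.0376), from 18.1 ± 2.32 to 24.5 ± 3.06 CPM (SD, n = 3 each), and was the only one of the 4 to pass. Of 14 inhibitors, receptors and clearance genes of plasminogen activation, 11 were tested and 4 rose. They included LRP1, an endocytic receptor that clears protease and inhibitor complexes, VTN (vitronectin), an adhesive plasma protein, and S100A10, a plasminogen receptor. Their log2 fold changes were 0.54 for LRP1 (SE 0.133, adjusted p = 0.0197), 0.45 for VTN (SE 0.118, adjusted p = 0.0240) and 0.31 for S100A10 (SE 0.0704, adjusted p = 0.0134). ANXA2, the partner of S100A10, had a log2 fold change of 0.12 with a 95% interval from -0.05 to 0.30. In the vitamin K cycle, GGCX, the carboxylase of the clotting factors and of protein S, rose by 0.32 on the log2 scale (SE 0.0765, adjusted p = 0.0163), and the other 3 of 4 genes did not pass. With 1 library left out, PROS1, LRP1 and VTN were each above 0.05 in 4 of 6 fits and GGCX in 3 of 6, whereas S100A10 stayed under it in all 6.

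**Figure D5:**
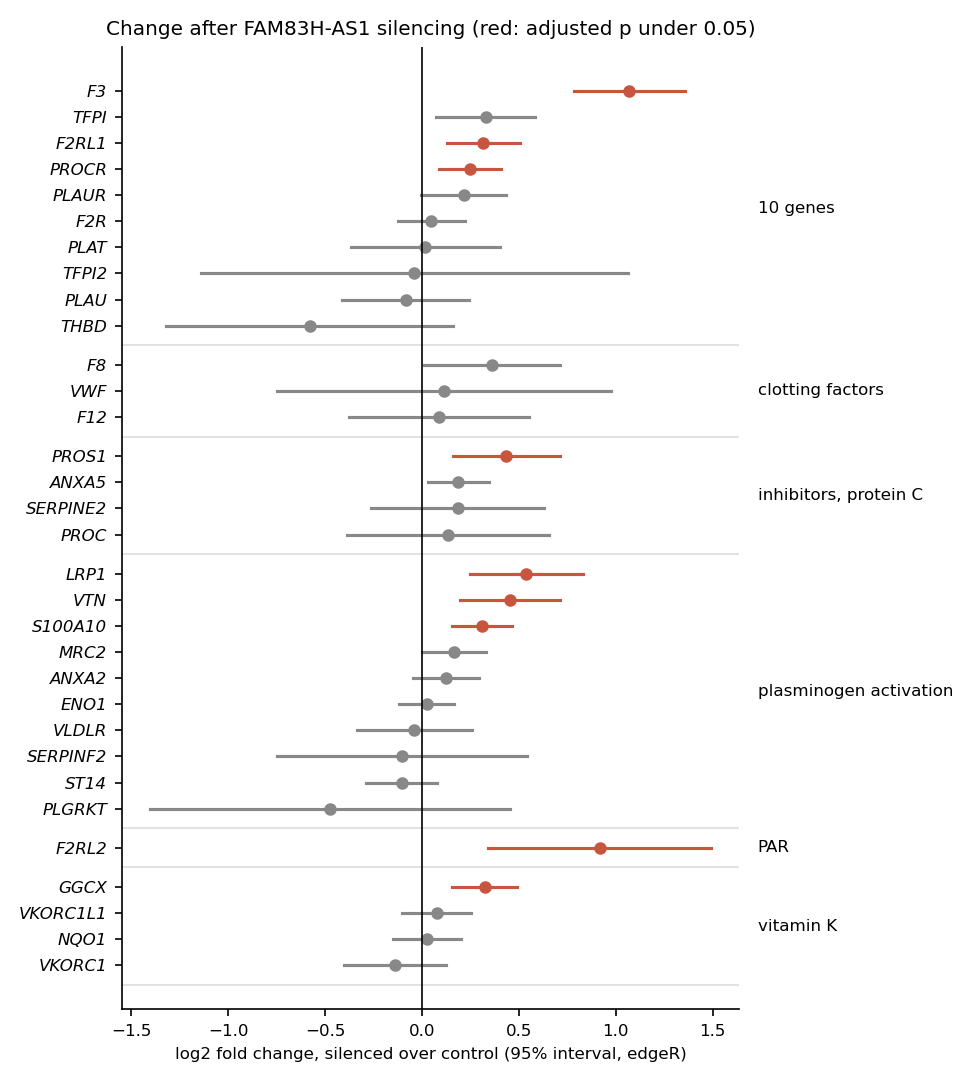
Log2 fold change of the 10 genes and of tested genes of the other pathway lists (horizontal axis, silenced over control), as points with 95% intervals from edgeR, in red where the adjusted p over all tested genes was under 0.05. F3 lies at 1.07 and F2RL2 at 0.92, and no red point lies below 0.

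Of 14 transcription factors known to act on the F3 and PLAU promoters, all were tested, 7 rose and 1 fell, with a median log2 fold change of 0.30, compared with 8.75% of all tested genes higher and 8.27% lower. The number of the list that passed was 4 to 7 with 1 library left out, and 4 without control replicate 2 or silenced replicate 1. The smallest adjusted p-values were those of FOSL1 (log2 fold change 0.44, SE 0.0741, adjusted p = 0.00345), FOSL2 (0.39, SE 0.0683, adjusted p = 0.00388), ETS1 (0.42, SE 0.0754, adjusted p = 0.00443) and HIF1A (0.32, SE 0.0771, adjusted p = 0.0169). FOS (0.83), JUN (0.49) and ETS2 (0.37) also rose and JUND (-0.43) fell, and these are named here after their values were seen. FOSL1, FOSL2 and ETS1 had an adjusted p under 0.05 in all 12 other fits, whereas FOS and JUN were each above it in 4 of the 6 fits with 1 library left out, ETS2 in 3, and HIF1A and JUND in 2 each. FOS was at 5.32 ± 1.54 CPM in the control and 9.30 ± 1.01 CPM in the silenced cells (SD, n = 3 each). EGR1, with 12 to 23 counts per library, NFKB1, RELA, SP1, JUNB and KLF2 did not pass. Whether these factors have a part in the level of F3 was not tested.

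As a measure of likeness, log2 CPM were centred on the mean of the control libraries and the root mean square difference from F3 was taken over the 6 libraries for the 12130 genes whose mean count reached 50. The most like F3 were SPOCK1 (0.131), TNS1 (0.131), PRPF40B (0.133), SLC7A7 (0.136) and HNF4A (0.139). Their log2 fold changes lay between 0.94 and 1.12. Values near that of F3 follow from the measure, which includes the difference between the groups, and are no separate result. TFPI2 and THBD were below the minimum count, and of the other genes of the 10, the nearest were F2RL1 and TFPI: F2RL1 was in place 1644 (0.597) and TFPI in place 1715 (0.602).

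In the 3′-UTR of the longest protein-coding transcript of GENCODE 29, the pentamer ATTTA of AU-rich elements, which are known to govern the decay of F3, PLAU and PLAUR mRNA, occurred in all 10 genes and in 71.7% of 11549 tested genes. The longer form TATTTAT occurred in 9 of the 10, in all but PROCR, and in 34.7% of the tested genes. The still longer form TTATTTATT occurred in 2 of the 10, THBD and PLAUR, and in 9.22% of the tested genes. F3 and PLAU held no match to it. By number of TATTTAT matches, not per base, THBD (5 in 2144 bases) and TFPI (3 in 2675) held most. PLAUR held 1 in 310 bases, and F3, TFPI2, PLAT and PLAU held 2 each. The median length of the 3′-UTRs was 1329.5 bases for the 10 genes and 1294 for the tested genes.

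Beside these results, other marker lists also differed between the groups. Of 6 epithelial markers, KRT7 and KRT18 fell by 0.57 and 0.43 on the log2 scale (adjusted p = 0.00116 and 0.00266), while CDH1 had a log2 fold change of 0.82 that did not pass (adjusted p = 0.112). The summed level, nearly all of it from KRT7, KRT8 and KRT18, was 4428 to 4727 CPM in the control and 3533 to 3574 CPM in the silenced libraries. CD68, the only one of 7 leukocyte and platelet markers to pass, rose by 0.88 (adjusted p = 9.93e-05), while PTPRC had 0 or 1 count and CD3E had 0. The summed level of those 7, nearly all of it from CD68, was 127 to 146 CPM in the control and 228 to 260 CPM in the silenced libraries. Of 6 endothelial markers, 2 were tested: ESAM rose by 0.32 (adjusted p = 0.0251), and CDH5 had a log2 fold change of -0.79 that did not pass (adjusted p = 0.0668). The endothelial sums, most of which came from ESAM, were 39.2 to 41.8 and 45.7 to 50.5 CPM, and KDR had 0 counts. Of 6 fibroblast markers none passed, with sums of 29.5 to 35.2 and 35.1 to 42.6 CPM. A part of these markers in the results for the 10 genes was not tested, and fewer cells with a transcript cannot be told apart from less RNA per cell in bulk libraries.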

How the data were processed

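RNA-Seq libraries were prepared from total RNA with an Ion Proton kit. Reads per gene were obtained by the authors with MapSplice, on GRCh37 per the labels, and the deposited values are these raw counts for 40173 gene symbols, 14309 of them with 0 counts in all libraries. The version of MapSplice, the annotation, the use of strand and the handling of reads with several matches are not given in the sources used here, so that reads of overlapping genes could be shared. The groups were compared in edgeR 4.0.16 (R 4.3.3, limma 3.58.1) by its quasi-likelihood F test, after filterByExpr and TMM scaling, with p-values adjusted after Benjamini and Hochberg across 15250 genes and no block for the replicate number; the study's methods used DESeq. Adjusted p-values in the text are from this fit. A gene was called where its adjusted p was under 0.05 and it changed more than 2-fold. These are the thresholds of the study's methods, whereas its results give a false discovery rate under 0.01 with the same fold change. The SE is |log2 fold change| / sqrt(F). CPM are counts per 1000000 counts of the TMM-normalized library. A prior count of 2 was used for log2 CPM in the likeness to F3. Ratios were tested by exact permutation over the 6 libraries. Lengths and 3′-UTRs came from GENCODE 29 (GRCh38) and promoters from RefSeq on GRCh38.p14, by symbol, with no coordinates taken over to the counts; positions count the start of transcription as 0. The code was tested on simulated counts, and Python 3.11.15, pandas 2.3.3, numpy 2.4.6, scipy 1.17.1 and matplotlib 3.10.9 were used.

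The members, the lists, the motifs and the tests were chosen with earlier results of these data known. By rule, the text names the 10 members, FAM83H-AS1 and the 5 genes most like F3. From each other list it names up to 4 genes with the smallest adjusted p under 0.05. FOS, JUN, ETS2, JUND, ANXA2, CDH1 and CDH5 are given with fold changes outside this rule. Other names give levels, overlaps, absent counts or tests not passed. A gene of the pathway lists, and its 2 ratios, are not reported here, though the counts and medians of the lists include it. The 12 other fits were DESeq2 1.42.0, RLE factors, library size only, no filter on low counts, a minimum of 10 counts in each library, a block on the replicate number, and each of the 6 libraries left out; an adjusted p under 0.01 was also tried. Library totals were 9738291 to 17742643 counts, and the 95% intervals of the log2 fold changes give the precision. Replicates differed by more than sampling noise (chi-square over degrees of freedom, 3.92 to 26.8), so that none was counted as a duplicate. The highest values were those of control replicate 3 against control replicates 1 (26.8) and 2 (22.7). The other pairs within a group lay between 3.92 and 9.47.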

Additional observations from a re-analysis of the deposited data

How the results depend on the processing

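Of 340 comparisons of a result with an alternative, 270 were taken as the same. A gene had to keep its direction and its side of the threshold, and a count to stay within 1.5 times the main count. For a ratio only the direction was compared. The comparison at 0.01 uses the main fit, so that genes above 0.05 could not change in it. F3 kept an adjusted p under 0.05 in its 12 other fits, with log2 fold changes from 0.95 to 1.18 when 1 library was left out, but the number of the 10 genes called fell from 1 to 0 without control replicate 1 or silenced replicate 3. FAM83H-AS1 kept an adjusted p under 0.05 in its 12 other fits, with log2 fold changes between -1.82 and -1.64. F2RL1 (log2 fold change 0.25 to 0.38) and PROCR (0.21 to 0.27) kept their direction when 1 library was left out. Their adjusted p was above 0.05 in 4 and in 6 of the 6 fits. Neither passed an adjusted p of 0.01, with 0.0287 for F2RL1 and 0.0382 for PROCR in the fit of all libraries. The adjusted p of PROCR was also above 0.05 with DESeq2 (log2 fold change 0.24, adjusted p = 0.0765) and with no filter (0.24, adjusted p = 0.0741). PLAUR had log2 fold changes between 0.13 and 0.32 without 1 library, with an adjusted p under 0.05 only without silenced replicate 2. The sign was not settled for TFPI2 (-0.43 to 0.73 with 1 library left out, 0.0304 with DESeq2, 0.00718 with library size only and 0.0359 with the replicate block), for PLAT (-0.0336 to 0.12) or for PLAU (-0.22 to 0.000908). TFPI2 and THBD had no value with at least 10 counts in every library. Their counts were 3 to 38 and 8 to 24 per library.

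Over the whole table, 326 genes were called, 583 with no filter, 199 with at least 10 counts in every library, 148 at an adjusted p under 0.01 and 200 to 335 with 1 library left out. An adjusted p under 0.05 was reached by 2595 genes, by 903 at 0.01, and by 1225 to 1962 with 1 library left out, when fewer samples enter the fit. The number of genes under the threshold in each list, without 1 library, was 0 to 1 for inhibitors of coagulation (1 in the fit of all libraries), 2 to 4 for plasminogen activation (4), 0 to 1 for the other receptors (1), 0 to 1 for the vitamin K cycle (1), 4 to 7 for the transcription factors (8) and 0 to 2 for the endothelial markers (1). At an adjusted p under 0.01 these counts were 0, 1, 0, 0, 3 and 0 in the same order. With DESeq2 the count for the other receptors was 0. The endothelial count was 2 with no filter, with at least 10 counts in every library and with the replicate block, and the fibroblast count was 1 with no filter. Scaling moved the median of all genes by at most 0.035 on the log2 scale.

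Same-numbered libraries of the groups correlated in their deviations from the group means at 0.124, 0.149 and 0.067, and other pairs at -0.112 to 0.018, so that every library correlated best with its own number, a hint from the data and not from the design. The numbers are those of the deposited table, and the study lists the silenced libraries in another order elsewhere. As the lowest of these is under 0.1, the numbers were not taken to pair the samples. With the replicate block, F3 had a log2 fold change of 1.07, the inhibitors of coagulation had 2 genes under the threshold, and no call of the 10 genes changed. Over the whole table, 380 genes were called with the block and 326 without it. An adjusted p under 0.05 was reached by 3449 genes with the block and 2595 without it.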

Other observations

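The 446 tested genes with TGANTCA in their promoter window had a median log2 fold change of 0.06, compared with 0.00 for the 9067 without it. An adjusted p under 0.05 with a higher level was reached by 15.0% of the former and 9.79% of the latter, and with a lower level by 6.73% and 9.20%. This split was chosen after the values of F3, FOS and JUN had been seen, is given as a description with no test, and gene counts, window composition and expression level were not matched.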
